A study of Rattus norvegicus with 60 samples.

Results

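The 7 genes described here carry out or supply glucuronidation and sulfation, the main conjugation reactions of the liver: the glucuronosyltransferases Ugt2b1 and Ugt2b7, the UDP-glucose dehydrogenase Ugdh, the sulfotransferases Sult1a1, Sult1b1 and Sult1c3, and the PAPS synthase Papss2. Their probe sets were found by symbol. A probe set counted for a gene only where the annotation gave it that 1 symbol, and the probe set with the highest mean over all 60 arrays stood for the gene. All 7 genes were found, out of 14217 genes with such a probe set. Papss2 had 2 probe sets and the others 1 each.

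Liver RNA came from male F344/N rats that were 5 to 6 weeks old at the start and were housed 2 to a cage. One series of rats was dosed with DMPT (N,N-dimethyl-p-toluidine, an aromatic amine used to cure acrylic resins) and another with p-toluidine, the same ring compound without the methyl groups on the nitrogen. Each series held 6 groups of 5 one-colour Affymetrix arrays: a corn oil vehicle group and daily doses of 1, 6, 20, 60 and 120 mg/kg, all given by gavage in corn oil at 2.5 ml/kg for 5 days. The protocol text spells out this dose series for DMPT, and the p-toluidine doses come from the sample labels. Replicates are numbered in the labels, which do not say which rat or cage an array belongs to, and the p-values therefore reflect only the spread among these arrays. Within each chemical a dose was compared with that chemical's vehicle, which asks at what dose each gene began to differ from vehicle.

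Glucuronidation attaches glucuronic acid to drugs, hormones and bilirubin. The transferases sit in the endoplasmic reticulum and draw the sugar from UDP-glucuronic acid, which UDP-glucose dehydrogenase makes from UDP-glucose. Sulfation takes place in the cytosol, where sulfotransferases move a sulfate group from PAPS, made by the PAPS synthases, onto phenols, steroids and hydroxylated aromatic amines. Conjugates are usually more soluble and easier to excrete, but sulfation of N-hydroxylated aromatic amines can yield reactive esters that bind DNA.

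The promoters of the 4 members with the largest changes are shown because 3 of these genes rose and 1 fell along the same doses. Each is the 250 bases before the start in the RefSeq promoter table, 5′ to 3′ on the gene's strand, in GRCr8; all 7 members had an entry. Capitals mark letters that match TGACNNNGC, the core of the antioxidant response element, or GCGTG, the core bound by the AhR and ARNT pair, on either strand. The Ugdh window lies at chr14:43202268-43202517 on the + strand, that of Ugt2b1 at chr14:21378632-21378881 on the + strand, that of Ugt2b7 at chr14:21251285-21251534 on the + strand and that of Sult1c3 at chr9:7594257-7594506 on the - strand. In Ugdh and Sult1c3 the annotated span of the gene reaches into the window.
Ugdh: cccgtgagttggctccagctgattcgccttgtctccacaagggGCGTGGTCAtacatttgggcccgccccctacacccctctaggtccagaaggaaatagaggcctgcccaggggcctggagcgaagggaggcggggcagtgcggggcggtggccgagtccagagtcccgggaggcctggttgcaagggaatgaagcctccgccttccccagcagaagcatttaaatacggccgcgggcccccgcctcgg
Ugt2b1: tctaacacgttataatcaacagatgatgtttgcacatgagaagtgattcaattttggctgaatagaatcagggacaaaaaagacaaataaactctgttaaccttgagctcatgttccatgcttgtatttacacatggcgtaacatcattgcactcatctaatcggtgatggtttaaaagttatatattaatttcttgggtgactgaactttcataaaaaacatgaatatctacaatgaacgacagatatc
Ugt2b7: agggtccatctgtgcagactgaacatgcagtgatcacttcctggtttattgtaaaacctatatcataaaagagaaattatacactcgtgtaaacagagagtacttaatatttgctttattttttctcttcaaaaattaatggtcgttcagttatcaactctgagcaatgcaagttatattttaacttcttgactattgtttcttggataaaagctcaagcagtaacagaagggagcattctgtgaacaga
Sult1c3: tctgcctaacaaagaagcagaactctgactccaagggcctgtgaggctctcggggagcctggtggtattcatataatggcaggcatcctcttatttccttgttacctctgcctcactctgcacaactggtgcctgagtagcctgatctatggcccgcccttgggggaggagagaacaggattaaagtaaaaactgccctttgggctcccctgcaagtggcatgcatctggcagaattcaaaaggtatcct
Of the 7 members only Ugdh held a match. In it the TGACNNNGC match read GCGTGGTCA, on the opposite strand, and its last base stood 199 bases before the start. It overlapped the one GCGTG match, whose last base stood 203 bases before the start. Among all 27457 promoters of the table, 10.2% held TGACNNNGC and 27.2% held GCGTG in the same 250 bases. The windows also differed in composition: G and C made up 66% of the Ugdh window, 51.6% of the Sult1c3 window, 34% of the Ugt2b7 window and 33.2% of the Ugt2b1 window. A match is a description of letters, and binding was not measured.

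All 60 arrays carried the liver's defining transcripts: 7 measured hepatocyte markers, albumin among them, lay between 11.54 and 13.88 on the log2 scale, against array medians of 3.53 to 3.61 on the DMPT arrays and 2.73 to 2.81 on the p-toluidine arrays. These medians did not overlap, and the 2 series appear to have been normalized apart, so levels are compared within a chemical and only responses (dose minus own vehicle) between chemicals. On 5 DMPT arrays (1 at 6, 2 at 60 and 2 at 120 mg/kg) the values had a narrower spread than on the others, with an interquartile range of at most 3.14 against at least 3.22. Without them 11 of the 35 pairs of member and DMPT dose were called in place of 12, the one lost being Papss2 at 60 mg/kg. Beta-actin, whose 3′ and 5′ probe sets are compared as a measure of RNA quality, had a 3′ minus 5′ log2 difference of 1.48 ± 0.148 (SD, n = 5) in DMPT vehicle and 1.28 ± 0.0806 at 120 mg/kg, and 1.8 ± 0.147 in p-toluidine vehicle and 1.52 ± 0.0854 at 120 mg/kg, and its part in the results was not tested. Because the RNA came from whole tissue, fewer cells of a type and less RNA per cell cannot be told apart.

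Along the dose series both glucuronosyltransferases and Ugdh rose and the sulfotransferases Sult1a1 and Sult1c3 fell, with either chemical. Sult1b1 passed no test. A gene was called where limma's adjusted p (Benjamini-Hochberg over all 31042 probe sets of a contrast) was at most 0.05. DMPT at 120 mg/kg gave 5 called members of 7, 3 higher and 2 lower, where 12.7% of all 14217 genes were called. The members were chosen with earlier results of these data known, so the shares here and below give scale and do not test the set. The count was also 5 of 7 at 60 mg/kg, 3 higher and 2 lower, against 7.31% of all genes, and 2 at 20 mg/kg, both higher, against 3.33%. At 6 mg/kg limma called none of the 7 against 0.211% of all genes, and at 1 mg/kg none against 0%. An unadjusted p below 0.05 was reached by 3 of the 7 at 6 mg/kg, and by 1430 of all 14217 genes. At 1 mg/kg it was reached by 1 of the 7 and by 737 of all genes.

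With p-toluidine the count at the top dose was again 5 of 7 members, 3 higher and 2 lower, against 14.8% of all genes. The count was 4 at 60 mg/kg, 2 higher and 2 lower, against 6.6%, and 1 at 20 mg/kg, higher, against 1.08%. At 6 mg/kg limma called no member and 0% of all genes, and the same numbers held at 1 mg/kg. An unadjusted p below 0.05 was reached by 1 member at each of these doses. Of all 14217 genes 1247 reached it at 6 mg/kg and 829 at 1 mg/kg. A trend fitted to the dose rank on all 30 arrays of a chemical called 6 of 7 members with DMPT, 3 rising and 3 falling, against 21% of all genes. With p-toluidine it also called 6 of 7, 3 rising and 3 falling, against 20.7%. Of the 35 pairs of member and dose, 12 were called with DMPT, 10 with p-toluidine and 9 with both, in the same direction. Pairs called with both chemicals were not counted over all genes, so the 9 cannot be scaled. The median change over all genes lay between −0.01 and 0.00 at each dose of either chemical. Of 5 bile duct cell markers 1, Epcam (named after its values were seen), rose at the top dose, by 1.47 ± 0.13 with DMPT and 1.84 ± 0.12 with p-toluidine. The other 4 were not called, and the list's median change was 0.07 and 0.09. The mean level over the 5 ranged from 3.02 to 3.18 in DMPT vehicle and from 3.28 to 3.75 at 120 mg/kg, and from 2.24 to 2.63 and from 2.59 to 2.91 with p-toluidine. Of 6 stellate cell markers 1 fell with DMPT and 2 with p-toluidine at 120 mg/kg, and of 7 hepatocyte markers 2 and 1 fell. Of 5 pancreatic acinar markers 1 fell with each chemical, and of 3 lymphocyte markers 1 rose, with DMPT only. None of 5 Kupffer cell and 4 sinusoidal endothelium markers was called. Of all 14217 genes 1056 fell and 752 rose with DMPT, and 983 fell and 1115 rose with p-toluidine. The part of these cell type markers in the members' changes was not tested.

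**Figure D1:**
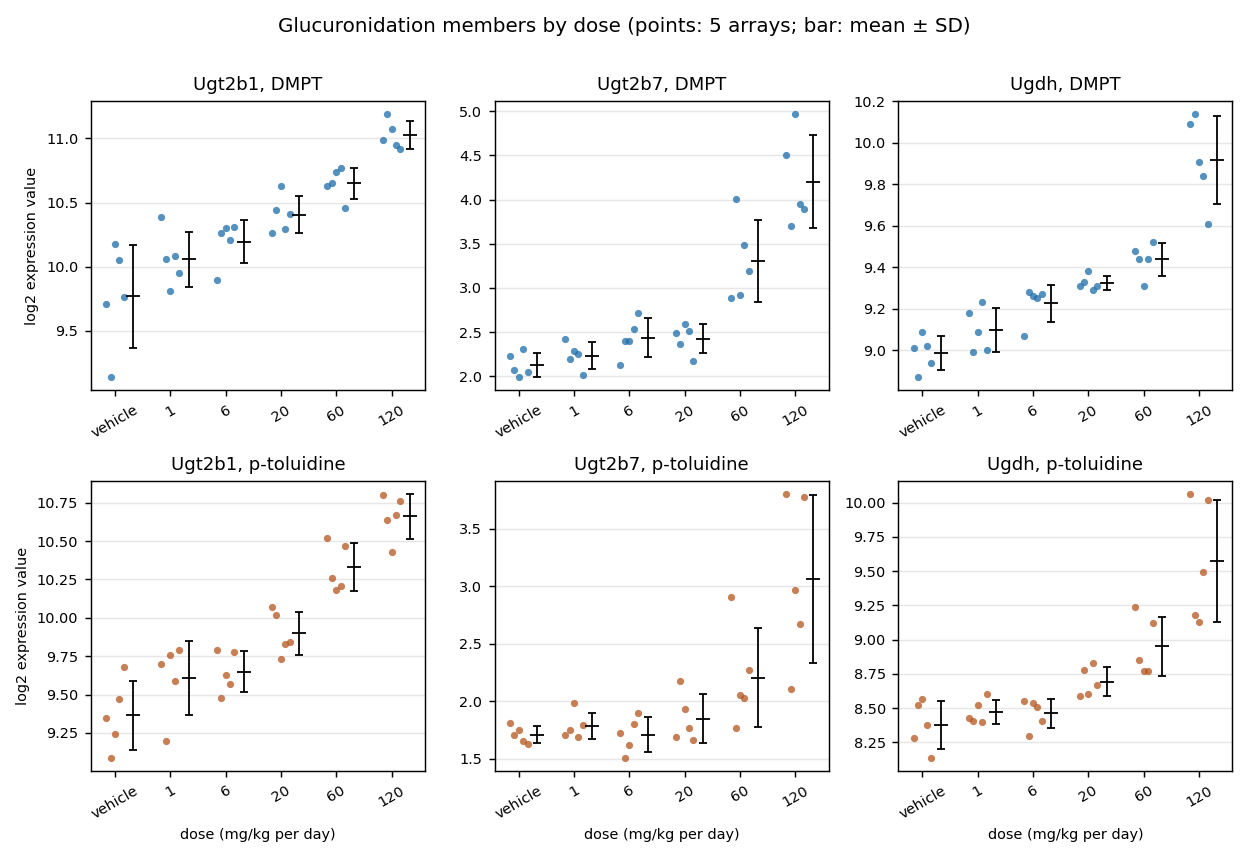
Log2 expression values of Ugt2b1, Ugt2b7 and Ugdh (columns) by dose in mg/kg per day, with DMPT in the upper row and p-toluidine in the lower; each point is 1 array and the bar gives the mean ± SD of 5 arrays. At 120 mg/kg every array of each panel lies above every vehicle array, and the axes differ between panels because levels are not comparable between probe sets or chemicals.

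Ugt2b1, a hepatic transferase that conjugates phenols such as bisphenol A, was called from 20 mg/kg upward with both chemicals. On the DMPT arrays its log2 values in vehicle were 9.71, 9.14, 10.18, 10.05 and 9.76, and at 120 mg/kg 10.99, 11.19, 11.07, 10.95 and 10.92. At 20 mg/kg they ran from 10.26 to 10.63 and at 60 mg/kg from 10.46 to 10.77. All arrays from 20 mg/kg upward lay above all vehicle arrays, and the 120 mg/kg arrays lay above all others. The log2 change from vehicle was 0.64 ± 0.13 (SE, as for the other changes) for 20 mg/kg (adjusted p = 0.00473), 0.88 ± 0.13 for 60 mg/kg (5.4e-05) and 1.26 ± 0.13, or 2.39-fold, for 120 mg/kg (4.08e-08). At 1 and 6 mg/kg it was at 0.29 and 0.43, with adjusted p-values of 0.906 and 0.225. Its group means were ordered by dose, but neighbouring groups up to 60 mg/kg overlapped.

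With p-toluidine the vehicle arrays of Ugt2b1 read 9.35, 9.09, 9.24, 9.47 and 9.68 and the 120 mg/kg arrays 10.80, 10.64, 10.43, 10.67 and 10.76. The 60 mg/kg arrays ran from 10.18 to 10.52 and the 20 mg/kg arrays from 9.73 to 10.07. The 20 mg/kg group lay above vehicle and the 60 mg/kg group above the 20 mg/kg group, without overlap, while the 60 and 120 mg/kg groups overlapped. The changes were 0.53 ± 0.11 for 20 mg/kg (adjusted p = 0.0122), 0.96 ± 0.11 for 60 mg/kg (7.5e-07) and 1.29 ± 0.11, or 2.45-fold, for 120 mg/kg (4.92e-10). Without vehicle replicate 2, the lowest vehicle array, the change at 20 mg/kg was 0.46 and its adjusted p 0.0516. At 1 and 6 mg/kg the changes were at 0.25 and 0.28, with adjusted p-values of 0.756 and 0.474.

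Ugt2b7, a second transferase of the 2b subfamily, had the largest rise of the members at 120 mg/kg of DMPT, from a dim probe set. Its vehicle arrays read 2.23, 2.07, 1.99, 2.31 and 2.05, below the array medians, its 60 mg/kg arrays 2.89, 4.01, 2.92, 3.49 and 3.19, and its 120 mg/kg arrays 4.51, 3.70, 4.97, 3.95 and 3.89. The arrays up to 20 mg/kg stayed at or below 2.72, so both upper doses stood clear of all lower ones, and they overlapped each other. The change was 1.17 ± 0.18 at 60 mg/kg (adjusted p = 0.000124) and 2.08 ± 0.18, or 4.21-fold, at 120 mg/kg (adjusted p = 1.71e-09). At 1, 6 and 20 mg/kg it was at 0.10, 0.31 and 0.29, with adjusted p-values of 0.99, 0.688 and 0.482. With either chemical the probe set's mean over the arrays lay below that of the median probe set, and fold changes of dim probe sets depend more on the background correction. Ugt2b genes are similar in sequence, and how far the probes of one respond to another was not tested.

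On the p-toluidine arrays Ugt2b7 read 1.81, 1.71, 1.75, 1.65 and 1.63 in vehicle, 2.91, 1.77, 2.05, 2.03 and 2.27 at 60 mg/kg, and 3.80, 2.11, 2.97, 2.67 and 3.78 at 120 mg/kg. At 120 mg/kg replicates 1 and 5 were high and replicate 2 low, and the SD of the group (0.73) was wider than that of vehicle (0.07). All 5 arrays still lay above all vehicle arrays. The change was 1.36 ± 0.21, or 2.56-fold, at 120 mg/kg (adjusted p = 2.98e-05). The 60 mg/kg change was 0.50 ± 0.21 (adjusted p = 0.212), with replicate 2 inside the vehicle range, and at 20 mg/kg it was at 0.14 (0.884). The first dose at which this gene was called was therefore 60 mg/kg with DMPT and 120 mg/kg with p-toluidine, but the difference between the chemicals was not called at either dose.

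Ugdh, which supplies the UDP-glucuronic acid that the glucuronosyltransferases use, was called from 20 mg/kg upward with DMPT and from 60 mg/kg upward with p-toluidine. Its vehicle arrays read 9.01, 8.87, 9.09, 9.02 and 8.94, its 20 mg/kg arrays 9.31, 9.33, 9.38, 9.29 and 9.31, and its 120 mg/kg arrays 10.09, 10.14, 9.91, 9.84 and 9.61. The 20 mg/kg arrays lay above all arrays of vehicle, 1 and 6 mg/kg, and the 120 mg/kg arrays above all others. The 60 mg/kg arrays ran from 9.31 to 9.52 and overlapped those at 20 mg/kg. The change was 0.34 ± 0.08 for 20 mg/kg (adjusted p = 0.0108), 0.45 ± 0.08 for 60 mg/kg (0.000319) and 0.93 ± 0.08, or 1.91-fold, for 120 mg/kg (4.17e-10). At 1 and 6 mg/kg it was at 0.11 and 0.24, with adjusted p-values of 0.96 and 0.261.

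With p-toluidine Ugdh read 8.28, 8.52, 8.57, 8.38 and 8.14 in vehicle, 9.24, 8.85, 8.77, 8.77 and 9.12 at 60 mg/kg and 10.06, 9.18, 9.13, 9.49 and 10.02 at 120 mg/kg. Both groups lay above all vehicle arrays. The high arrays at 120 mg/kg were again replicates 1 and 5, the same 2 arrays that were high for Ugt2b7, and both genes were also highest in replicates 1 and 5 at 60 mg/kg. The change was 0.57 ± 0.13 at 60 mg/kg (adjusted p = 0.00859) and 1.19 ± 0.13, or 2.29-fold, at 120 mg/kg (1.25e-07). At 20 mg/kg it was 0.31 ± 0.13 (0.344), although the 5 arrays, from 8.59 to 8.83, all lay above vehicle. Per step from one dose to the next, the trend was 0.17 with DMPT and 0.22 with p-toluidine for Ugdh, 0.24 and 0.25 for Ugt2b1, and 0.39 and 0.23 for Ugt2b7.

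**Figure D2:**
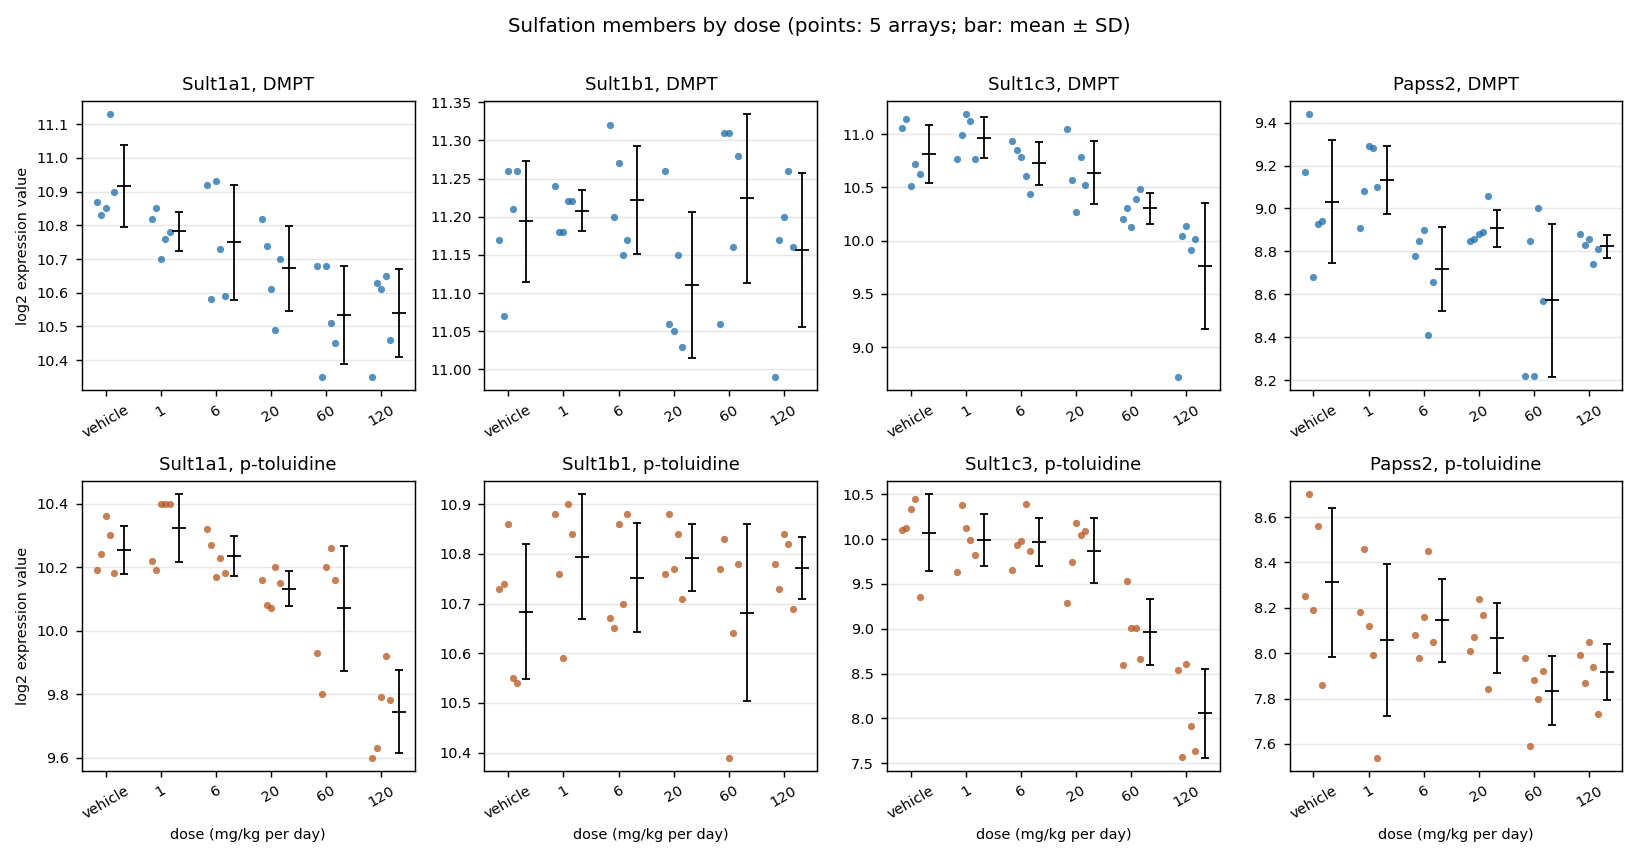
Log2 expression values of Sult1a1, Sult1b1, Sult1c3 and Papss2 (columns) by dose in mg/kg per day, with DMPT in the upper row and p-toluidine in the lower; each point is 1 array and the bar gives the mean ± SD of 5 arrays. Sult1c3 and Sult1a1 lie below all vehicle arrays at 120 mg/kg of either chemical, Sult1b1 overlaps vehicle at every dose, and 1 Sult1c3 array at 120 mg/kg of DMPT, at 8.72, stands below the other 4.

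Sult1c3, also known as hydroxyarylamine sulfotransferase for its activity toward N-hydroxylated aromatic amines, had the largest fall of the members at 120 mg/kg of either chemical. On the DMPT arrays vehicle read 11.06, 11.14, 10.51, 10.72 and 10.63, and 120 mg/kg read 8.72, 10.04, 10.14, 9.91 and 10.02. Every 120 mg/kg array lay below every vehicle array, and replicate 1 stood below the other 4, which ran from 9.91 to 10.14. The change was −1.05 ± 0.18 at 120 mg/kg (adjusted p = 0.000198), a level 0.484 times that of vehicle. Without replicate 1 of that dose it was −0.79 and was still called (adjusted p = 0.000258). The 60 mg/kg arrays, from 10.13 to 10.49, also lay below all vehicle arrays, and the change of −0.51 ± 0.18 was not called (adjusted p = 0.108), except in a fit limited to the 10 arrays of that contrast (0.0343). At 1, 6 and 20 mg/kg it was at 0.15, −0.09 and −0.17, each with an adjusted p of 0.737 or more.

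With p-toluidine Sult1c3 read 10.10, 10.12, 10.33, 10.45 and 9.35 in vehicle, 8.60, 9.53, 9.01, 9.01 and 8.66 at 60 mg/kg and 8.54, 7.57, 8.61, 7.92 and 7.64 at 120 mg/kg. The 120 mg/kg arrays lay below all vehicle arrays; at 60 mg/kg 1 array, replicate 2, lay above the lowest vehicle array. The gene fell by 1.11 ± 0.21 on the log2 scale at 60 mg/kg (adjusted p = 0.00152) and by 2.02 ± 0.21 at 120 mg/kg (5.64e-08), to 0.247 times the vehicle level. At 1, 6 and 20 mg/kg it was at −0.08, −0.10 and −0.20, with adjusted p-values of 0.983, 0.944 and 0.815. Of 7 measured markers of pericentral hepatocytes 3 fell and none rose at 120 mg/kg of DMPT (median −0.10), and 2 fell and none rose at 120 mg/kg of p-toluidine (median −0.11). Those that fell, named after their values were seen, were Oat (to 0.231 and 0.178 times vehicle), Slc1a2 (0.694 and 0.499 times) and, with DMPT, Axin2 (0.704 times), while Glul, Cyp2e1, Rgn and Lgr5 were not called with either chemical. The mean level over the 7 ranged from 7.47 to 7.57 in DMPT vehicle and from 6.97 to 7.15 at 120 mg/kg, and from 6.87 to 7.12 and from 6.35 to 6.56 with p-toluidine. Their part in the change of Sult1c3 was not tested. Of 7 periportal markers 1 fell and none rose with each chemical at that dose.

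Sult1a1, a phenol sulfotransferase, fell by a smaller amount. On the DMPT arrays vehicle read 10.87, 10.83, 10.85, 11.13 and 10.90, 60 mg/kg read 10.68, 10.35, 10.68, 10.51 and 10.45, and 120 mg/kg read 10.35, 10.63, 10.61, 10.65 and 10.46. The groups at 20, 60 and 120 mg/kg all lay below all vehicle arrays and overlapped each other. The change was −0.38 ± 0.08 at 60 mg/kg (adjusted p = 0.00517) and −0.37 ± 0.08, or 0.772 times vehicle, at 120 mg/kg (adjusted p = 0.0032). At 20 mg/kg it was −0.24 ± 0.08 and not called (adjusted p = 0.127), except with array quality weights (0.0454). At 1 and 6 mg/kg it was at −0.13 and −0.17, with adjusted p-values of 0.957 and 0.595.

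With p-toluidine Sult1a1 read 10.19, 10.24, 10.36, 10.30 and 10.18 in vehicle and 9.60, 9.63, 9.79, 9.92 and 9.78 at 120 mg/kg, with no overlap. It was called at that dose only, at −0.51 ± 0.08 or 0.702 times vehicle (adjusted p = 2.27e-05). At 60 mg/kg, where the arrays ran from 9.80 to 10.26 and overlapped vehicle, it was at −0.19 ± 0.08 (adjusted p = 0.207), and at 20 mg/kg at −0.12 (0.62). The trend per dose step was −0.08 with DMPT and −0.10 with p-toluidine, against −0.21 and −0.38 for Sult1c3.

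Sult1b1, a sulfotransferase of phenols and thyroid hormones, was the member that passed no test. On the DMPT arrays its vehicle values were 11.17, 11.07, 11.26, 11.21 and 11.26 and its 120 mg/kg values 10.99, 11.17, 11.20, 11.26 and 11.16; on the p-toluidine arrays they were 10.73, 10.74, 10.86, 10.55 and 10.54, and 10.78, 10.73, 10.84, 10.82 and 10.69. The groups overlapped at every dose. Its change at 120 mg/kg was −0.04 (95% interval −0.17 to 0.09, adjusted p = 0.82) with DMPT and 0.09 (−0.07 to 0.25, adjusted p = 0.591) with p-toluidine, and over all doses it lay between −0.08 and 0.11.

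Papss2, one of the enzymes that make PAPS, was called lower at 60 mg/kg of each chemical, and this rested on single arrays and on 1 probe set. With DMPT its vehicle arrays read 9.17, 9.44, 8.68, 8.93 and 8.94, its 60 mg/kg arrays 8.22, 8.85, 8.22, 9.00 and 8.57, and its 120 mg/kg arrays 8.88, 8.83, 8.86, 8.74 and 8.81. With p-toluidine they read 8.25, 8.70, 8.19, 8.56 and 7.86, then 7.98, 7.59, 7.88, 7.80 and 7.92, then 7.99, 7.87, 8.05, 7.94 and 7.73. The groups overlapped vehicle at every dose. The change at 60 mg/kg was −0.46 ± 0.13 with DMPT (adjusted p = 0.0278) and −0.48 ± 0.14 with p-toluidine (0.0355). Each of the 10 arrays of the contrast was left out in turn: the call was lost in 5 of these fits with DMPT and in 7 with p-toluidine, and the highest adjusted p, 0.11 and 0.138, came in both cases from leaving out vehicle replicate 2. Without the 5 narrow DMPT arrays the DMPT change was −0.34 (adjusted p = 0.225), and with array quality weights −0.37 (0.0986). In a fit limited to the 10 arrays of the contrast the call was lost with DMPT (adjusted p = 0.163) and with p-toluidine (0.0913).

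Papss2 at 120 mg/kg was at −0.21 ± 0.13 with DMPT (adjusted p = 0.367) and −0.39 ± 0.14 with p-toluidine (0.0578). The latter was called without vehicle replicate 5 (−0.51, adjusted p = 0.01), with array quality weights (0.0171), with a replicate block (0.0357) and with dim probe sets left out (0.0381). The trend per dose step was −0.07 with DMPT (adjusted p = 0.0182) and −0.08 with p-toluidine (0.0179), and was lost without vehicle replicate 2 in each (0.0611 and 0.0584). With p-toluidine it was also lost without vehicle replicate 4 (0.0516), and with DMPT without the narrow arrays (0.11). The second, dimmer Papss2 probe set was called at no dose: at 60 mg/kg it was at −0.25 ± 0.17 with DMPT (adjusted p = 0.481) and −0.17 ± 0.16 with p-toluidine (0.693), and at 120 mg/kg at 0.00 and 0.03. With the mean of both probe sets the 60 mg/kg changes were −0.36 (adjusted p = 0.156) and −0.33 (0.236). The trend of that mean was −0.05 with each chemical and was not called (adjusted p = 0.173 and 0.221).

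The responses of the members to the 2 chemicals were then compared at each dose, matched by mass, in 35 tests of DMPT minus p-toluidine. Limma called none of the 7 members at any dose, and 4 of the 35 differences had an unadjusted p below 0.05. Of all genes 0% were called at 1, 6, 20 and 60 mg/kg, and 0.0141% at 120 mg/kg. An unadjusted p below 0.05 was found for 2 members at 60 mg/kg and 2 at 120 mg/kg, and for 671 and 957 of all 14217 genes. At 1, 6 and 20 mg/kg no member had one, and 923, 828 and 1114 of all genes did. The 4 differences concerned Ugt2b7 and Sult1c3. For Ugt2b7 the response to DMPT was higher by 0.67 at 60 mg/kg (95% interval 0.09 to 1.25, adjusted p = 0.999) and by 0.72 at 120 mg/kg (0.14 to 1.30, adjusted p = 0.615). For Sult1c3 the response to p-toluidine was the more negative: DMPT minus p-toluidine was 0.60 at 60 mg/kg (0.01 to 1.19, adjusted p = 0.999) and 0.97 at 120 mg/kg (0.38 to 1.56, adjusted p = 0.343).

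For the other members the intervals at 120 mg/kg held 0. The difference was −0.04 for Ugt2b1 (−0.38 to 0.31), −0.26 for Ugdh (−0.57 to 0.05) and 0.14 for Sult1a1 (−0.09 to 0.36). It was −0.12 for Sult1b1 (−0.32 to 0.07) and 0.19 for Papss2 (−0.20 to 0.57). The interval for Ugt2b1 allows a response to the compound with the methyl groups that is lower by 0.38 or higher by 0.31, and that for Sult1c3 a fall with it that is smaller by 0.38 to 1.56.

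**Figure D3:**
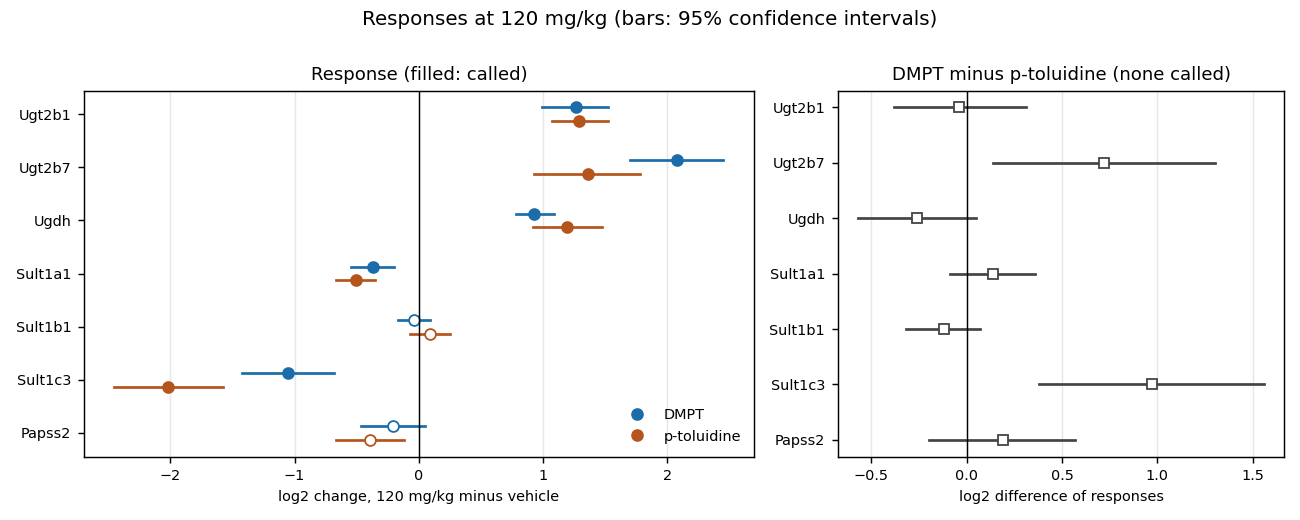
Left, log2 change of each member at 120 mg/kg minus vehicle with DMPT (blue) and p-toluidine (orange), with 95% confidence intervals; filled points passed the adjusted p threshold. Right, the difference of these responses, DMPT minus p-toluidine, with 95% confidence intervals; none was called, and the intervals of Ugt2b7 (0.14 to 1.30) and Sult1c3 (0.38 to 1.56) lie to the right of 0.

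The wider glucuronidation list held 27 genes, of which 12 had a probe set of their own, the 3 members included; those of the Ugt1a family did not, because their probe sets carry several symbols. With 120 mg/kg of DMPT 8 of the 12 rose and 1 fell (median 0.48), and at 120 mg/kg of p-toluidine 8 rose and 1 fell (median 0.45), where the median of all genes was −0.00 and 12.7% and 14.8% of all genes were called. Without the 3 members 5 of 9 rose and 1 fell with each chemical. Besides the members, Ugt2b10 rose by 0.67 ± 0.09 and 0.73 ± 0.08, Ugt2a1 by 0.58 ± 0.10 and 0.57 ± 0.09, and Ugt2b15 by 0.37 ± 0.09 and 0.32 ± 0.09. Ugp2, which makes the UDP-glucose that Ugdh oxidizes, rose by 0.58 ± 0.11 with DMPT (adjusted p = 0.000435) and 0.78 ± 0.11 with p-toluidine (8.73e-06). The 60 mg/kg groups had 7 of 12 that rose and 2 that fell with DMPT, and 5 and 1 with p-toluidine. At 20 mg/kg the numbers were 3 and 1, and 2 and 0, and at 1 and 6 mg/kg none of the 12 was called with either chemical.

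The protein-coding genes of rat chromosome 14 named Ugt2 or Sult1 were put in a row by their start. They were picked by name, after values of these genes had been seen, and any other genes between them were left out. In order along GRCr8 the measured genes are Sult1e1, Sult1d1, Sult1b1, Ugt2a1, Ugt2b, Ugt2b15, Ugt2b35, Ugt2b7, Ugt2b1, Ugt2b10 and Ugt2b34l1. All 8 measured Ugt2 genes of the row rose at 120 mg/kg of each chemical, where 752 of all 14217 genes rose with DMPT and 1115 with p-toluidine. How far the probes of one of these similar genes respond to another was not tested, so the 8 may not be separate readings. The smallest rises were those of Ugt2b35, by 0.23 ± 0.06 with DMPT, and of Ugt2b, by 0.24 ± 0.07 with p-toluidine; the highest fitted changes were those of Ugt2b7, whose vehicle means of 2.13 and 1.71 lay below the array medians and were not shown to be above background, and of its measured neighbour Ugt2b1. Sult1d1 (0.04 ± 0.07 and −0.00 ± 0.08) and Sult1b1 were not called with either chemical. Sult1e1, which sulfates estrogens, was at −1.47 ± 0.55 with DMPT (adjusted p = 0.0897) and fell by 2.96 ± 0.51 with p-toluidine (0.000129).

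**Figure D4:**
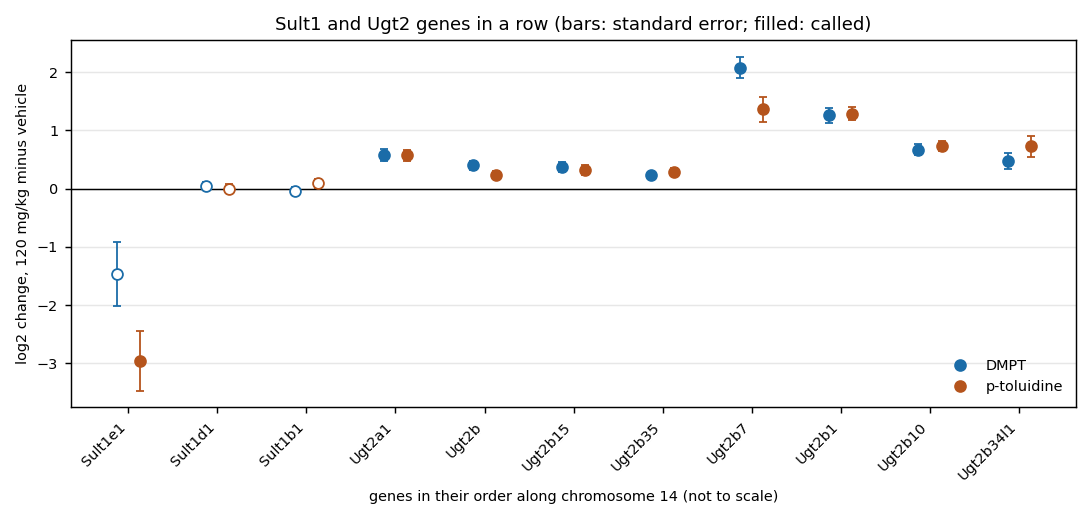
Log2 change at 120 mg/kg minus vehicle, with its standard error, for the measured Sult1 and Ugt2 genes in their order along chromosome 14, with DMPT in blue and p-toluidine in orange; filled points were called. All 8 Ugt2 genes lie above 0 with both chemicals and Ugt2b7, from a dim probe set, and Ugt2b1 are highest, while Sult1d1 and Sult1b1 lie near 0, uncalled, and Sult1e1 below it.

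Of the 28 symbols on the sulfation list 27 were measured, 4 of them members. With 120 mg/kg of DMPT 6 fell and none rose (median −0.15), and at 120 mg/kg of p-toluidine 8 fell and 4 rose (median −0.07), where 12.7% and 14.8% of all genes were called. Without the members 4 of 23 fell and none rose with DMPT, where 1056 of all 14217 genes fell and 752 rose. With p-toluidine 6 of the 23 fell and 4 rose, where 983 of all genes fell and 1115 rose. Slc26a1, a sulfate transporter of the hepatocyte, fell by 1.07 ± 0.09 with DMPT (adjusted p = 3.49e-10) and by 1.12 ± 0.10 with p-toluidine (1.54e-09). The steroid sulfatase Sts, which removes sulfate, fell by 0.48 ± 0.12 and 0.50 ± 0.13. With DMPT the arylsulfatase Arsa fell by 0.42 ± 0.08 and the phosphatase Bpnt2, which breaks down the product left from PAPS, by 0.37 ± 0.07. With p-toluidine Bpnt2 was also called lower, at −0.21 ± 0.07 (adjusted p = 0.0286), and Arsa was at −0.15 ± 0.09 (0.338). With p-toluidine the hydroxysteroid sulfotransferase Sult2a6 rose by 0.96 ± 0.25 (adjusted p = 0.00824). In the 60 mg/kg groups 6 fell and none rose with DMPT and 6 fell and 1 rose with p-toluidine, and at 20 mg/kg 2 fell and 2 rose with DMPT and none was called with p-toluidine.

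The list of conjugate exporters, uptake carriers and transcription regulators had 22 of 23 genes measured, with 4 that rose and 4 that fell at 120 mg/kg of DMPT (median −0.03) and 6 and 5 at 120 mg/kg of p-toluidine (median 0.04), against 12.7% and 14.8% of all genes called. Abcc3, which exports glucuronides to the blood, rose by 2.04 ± 0.28 with DMPT (adjusted p = 6.56e-06) and 2.30 ± 0.31 with p-toluidine (3.98e-06), and the drug efflux pump Abcb1a by 0.66 ± 0.17 and 0.89 ± 0.17. The uptake carrier Slco1a4 fell by 0.69 ± 0.12 and 1.13 ± 0.12. Hnf4a, a hepatocyte transcription factor, fell by 0.52 ± 0.09 with DMPT and was at −0.31 ± 0.12 with p-toluidine (adjusted p = 0.115). At 60 mg/kg of p-toluidine Hnf4a was called lower (−0.45 ± 0.12, adjusted p = 0.026). Abcg2, which exports sulfate conjugates, rose by 0.55 ± 0.10 with p-toluidine and was at 0.31 ± 0.14 with DMPT (adjusted p = 0.188).

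For each member the 3 genes with the most similar values over the arrays were named by the lower of 2 Pearson correlations, each over the 30 arrays of 1 chemical. The arrays share their doses, and the correlations describe that shared course. Ugt2b1 was most like Aldh1a1, a retinaldehyde dehydrogenase (r = 0.935 with DMPT and 0.943 with p-toluidine), then Gpx2, a glutathione peroxidase, and Gsta3, a glutathione S-transferase. Ugt2b7 and Ugdh were both most like the quinone reductase Nqo1, with r = 0.921 and 0.89 for Ugt2b7 and 0.935 and 0.943 for Ugdh. After it came Ttc39a and Slc66a3 for Ugt2b7, and Ptgr1 and the epoxide hydrolase Ephx1 for Ugdh.

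Among the sulfation members, Sult1c3 was most like Ust5r (r = 0.936 and 0.932), the male-specific cytochrome Cyp2c11 (0.928 and 0.959) and Kynu, a kynureninase. Sult1a1 was most like the bile acid ligase Slc27a5 (0.847 and 0.935), Ethe1 and the cytochrome Cyp1a2. Papss2 was most like Cdh17, Slc39a8 and Igfals, with lower values of r that ran from 0.69 to 0.803. Sult1b1 had no close match: Cyp2c13, Obp1f and Cnbp ranked first with r between 0.423 and 0.653.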

How the data were processed

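The deposited table holds 1 value per probe set and array for 60 arrays. Per the submitters' processing notes the authors used RMA (background correction, quantile normalization and summarization of probes), which gives log2 values; neither version nor settings were stated in the notes or labels (not given in the sources used here). Every fold depends on the log2 scale, which was taken from this and from the range of the values. RMA values carry no depth, so the number of arrays limits precision.

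After 57 control probe sets were left out, 31042 were tested. Gene symbols of the platform annotation were brought up to date by matching gene IDs with RefSeq (GRCr8): 20826 probe sets had 1 symbol (20758 with a gene ID in the RefSeq table), 436 several and 9780 none. Limma 3.58.1 (lmFit and eBayes, R 4.3.3) fitted the 30 arrays of a chemical with group means, and all 60 for the difference of responses, with no covariate; the fits were tested on simulated data. Besides the members, at most the 4 genes with the largest called change per list and chemical at 120 mg/kg, and the 3 genes most like each member, were named; genes of the chromosome 14 row and cell type markers outside this rule were named after their values were seen. The members and lists were chosen with earlier results of these data known. The alternatives changed the probe set rule, brightness filter, normalization, arrays in the fit, weights, variance prior and replicate block, or left out arrays.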

Additional observations from a re-analysis of the deposited data

Results flagged for a closer look

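In 5 of 84 groups of 5 arrays (7 members in 12 groups) 1 array stood far from the other 4, by its gap to the nearest array as a share of the group's range; chance alone gives about 1 in 20 groups. All 5 were on the DMPT arrays. The widest gap in log2 units was that of Sult1c3 at 120 mg/kg, where replicate 1 read 8.72 and the others 9.91 to 10.14; without it the change from vehicle was −0.79 in place of −1.05 and was still called. Replicate 1 at 6 mg/kg was low for both Ugt2b1 (9.90, with the others from 10.21 to 10.31) and Ugdh (9.07, with the others from 9.25 to 9.28). Neither gene was called at 6 mg/kg with it, nor without it, when their adjusted p-values were 0.119 and 0.158. Vehicle replicate 4 was high for Sult1a1 (11.13, with the others from 10.83 to 10.90), and without it the changes at 60 and 120 mg/kg were −0.33 and −0.32, both still called. Replicate 5 at 20 mg/kg was high for Papss2 (9.06, with the others from 8.85 to 8.89), a dose at which this gene was not called with it (adjusted p = 0.729) or without it (0.682).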

How the results depend on the processing

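No member's called change turned direction under any alternative. Over 2818 refits of 119 member results (each dose, the trend and the difference of responses), 25 lost a call and 6 gained one, and 77 with no call in either fit had the opposite sign, none with a change above 0.14. Of the 35 pairs of member and dose, between 11 and 12 were called with DMPT and between 9 and 11 with p-toluidine. This held under the alternatives that kept all members and either kept all arrays or left out the 5 narrow ones (the last added after seeing the data). With dim probe sets left out, 10 of 30 pairs were called with each chemical. When 1 array was left out the number lay between 11 and 13 with DMPT and between 8 and 11 with p-toluidine. The difference of responses gave 0 called members in all 69 alternatives. At 20 mg/kg of p-toluidine the count of called members ranged from 0 to 1 when 1 array was left out. Ugt2b7 has no value with dim probe sets left out, which tests fewer probe sets. A fit limited to the arrays compared was not run for the trend, which uses all arrays of a chemical. Replicate numbers did not pair the arrays: deviations of arrays with the same number correlated at −0.00112 with DMPT and −0.00426 with p-toluidine on average, and 4 and 2 of 30 arrays correlated best with their own number. With the replicate number as a block, 12 pairs were called with DMPT and 11 with p-toluidine, the added one being Papss2 at 120 mg/kg.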
